A study of Mus musculus with 20 samples.

Results

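The 10 genes described here carry the myostatin, activin and TGF-beta signal in muscle and were taken as the rows whose Ensembl identifiers map to Mstn, Tgfb1, Acvr2a, Acvr2b, Acvr1b, Tgfbr1, Smad2, Smad3, Fst and Fstl1. They are 10 of 55416 genes in the deposited counts, and 10 of 10 had enough reads to be tested. The counts came from quadriceps muscle of male WT mice of strain C57BL/6J, 26 to 28 months old, which were fasted for 4 h and killed 3 h after a single intramuscular injection. Control mice (n = 10, libraries 1 to 10) received 50 µL of saline, and secretome-treated mice (n = 10, libraries 11 to 20) received 50 µL of a cell-free product made from the culture medium of partially differentiated human embryonic stem cells. All 20 mice were old, so no young muscle stands beside them. The injected product is human, and the paper lists follistatin and TGF-beta1 among its soluble factors, from ELISA data reported earlier. It can thus itself bring in secreted factors of this pathway as protein, which RNA counts do not show.

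Myostatin and the activins are secreted ligands of the TGF-beta superfamily that restrain muscle growth. They bind the type II receptors encoded by Acvr2a and Acvr2b, which recruit and phosphorylate a type I receptor such as the product of Acvr1b or Tgfbr1, and the type I receptor then phosphorylates SMAD2 and SMAD3, which enter the nucleus and control transcription. TGF-beta1 reaches these SMADs through its own type II receptor and Tgfbr1. Follistatin, encoded by Fst, is a secreted protein that binds myostatin and activins and keeps them from their receptors, and Fstl1 encodes a related secreted glycoprotein. The study also followed this signal by other methods, whose data are not analysed here.

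Mstn lies at chr1:53061640-53068079 on the plus strand and has 3 exon blocks, and Acvr2a lies at chr2:48814109-48903269 on the plus strand with 11 exon blocks. Positions are from GENCODE M21 on GRCm38, while the authors' reads were aligned to GRCm39, so they serve to describe the genes and not the counting. The sequences upstream of these 2 genes are shown because their levels, of all pairs of members, had the highest correlation between mice (r = 0.825 over 20 libraries, described further on). They are RefSeq sequences on GRCm38.p6, at chr1:53061390-53061639 for Mstn and chr2:48813859-48814108 for Acvr2a, both on the plus strand and both ending at the base before the gene. Capitals mark E-boxes (CANNTG, the sequence bound by MyoD and other basic helix-loop-helix factors) and the TATA box (TATAAA), searched on both strands.
Mstn: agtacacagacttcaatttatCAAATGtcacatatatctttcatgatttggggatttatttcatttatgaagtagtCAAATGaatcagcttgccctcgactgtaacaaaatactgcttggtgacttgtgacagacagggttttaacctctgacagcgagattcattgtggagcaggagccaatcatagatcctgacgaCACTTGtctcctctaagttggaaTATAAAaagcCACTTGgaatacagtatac
Acvr2a: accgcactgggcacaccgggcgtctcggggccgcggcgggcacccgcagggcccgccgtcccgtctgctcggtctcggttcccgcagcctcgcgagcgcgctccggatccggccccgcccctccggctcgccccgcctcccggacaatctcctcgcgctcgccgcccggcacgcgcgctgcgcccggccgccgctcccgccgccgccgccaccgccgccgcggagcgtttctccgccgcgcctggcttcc
The Mstn sequence held 4 E-boxes and 1 TATA box at 38.4% GC with 3 CpG dinucleotides, whereas the Acvr2a sequence held 0 E-boxes and 0 TATA boxes at 82.0% GC with 49 CpG dinucleotides. Among 32851 mouse promoters of the same length, 66.2% held an E-box and 12.4% a TATA box, and the median GC content was 52.4%. The short letters CAGAC, a SMAD binding element, were found 2 times upstream of Mstn and 1 time upstream of Acvr2a, and in 42.2% of all promoters. These matches describe the letters of the windows and say nothing of binding.

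Reads counted on genes ranged from 13286983 in control 2 to 22987237 per library. All 8 myofibre markers were measured, with a summed level of 49860 to 74370 CPM (read counts scaled to library size with TMM) in the 20 muscles. Titin (Ttn) took 7.02% to 11% of the counts in libraries 1 to 5, which are all controls, 16.4% to 21.1% in control libraries 6 to 10, 17.8% to 20.7% in secretome-treated libraries 11 to 15, and 14.2% to 14.7% in secretome-treated libraries 16 to 20. Libraries 6 to 15 are therefore the only range that holds both treatments, and the members' differences are given over all 20 libraries and within that range. The ranges were drawn from the titin shares in these counts and neither the study nor the labels name a cause for them. Between libraries 1 to 5 and 16 to 20, library number and treatment cannot be told apart. Within libraries 6 to 15 the controls are numbers 6 to 10 and the secretome-treated muscles 11 to 15. A shift between those numbers could not be told apart from treatment either.

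After secretome treatment, 0 of the 10 genes passed a 5% false discovery rate by the quasi-likelihood test of edgeR (p adjusted by Benjamini and Hochberg), with adjusted p from 0.203 to 0.973, and 0.00691% of all 14471 genes tested passed it. With DESeq2, the program the study used, 190 genes passed that rate, and 0 of them were members. The log2 fold change was above 0 for 6 genes and below 0 for 4, with a median of 0.11 over the 10 genes against -0.03 over all genes tested. An unadjusted p under 0.05 was reached by 1 higher member, Smad3, and 1 lower member, Tgfb1, where 15.7% of all genes tested reached that level, 6.52% higher and 9.21% lower. Within libraries 6 to 15, 0 members passed the false discovery rate, as did 0.0% of 14469 genes. There Mstn and Acvr2a were the 2 higher members at an unadjusted p under 0.05 and Tgfb1 the 1 lower member, where 9.95% of genes reached that level, 5.02% higher and 4.92% lower. The levels of the 2 treatments overlapped for each of the 10 genes, both over 20 libraries, where 0.0484% of genes did not overlap, and within libraries 6 to 15, where 1.91% did not.

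**Figure D1:**
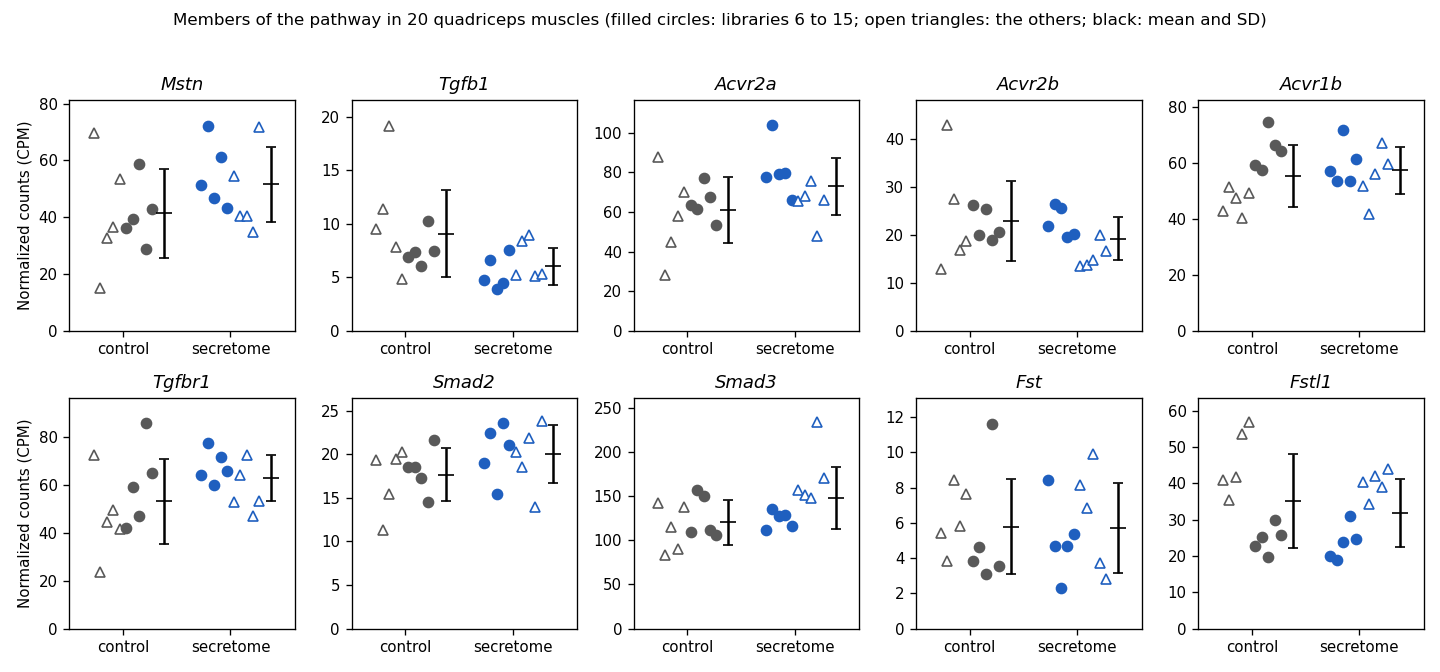
Normalized counts (CPM, linear axes from 0) of the 10 members in each of 20 muscles, 10 control (grey) and 10 secretome-treated (blue); filled circles are libraries 6 to 15, open triangles are the others, and the black bar is the mean and SD of 10 mice. Tgfb1 and Mstn differ in mean in opposite directions, and in every panel the points of the treatments overlap.

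Mstn, which encodes myostatin, ranged from 15.1 CPM (control 2) through a median of 38.0 to 69.5 CPM in control muscle, and from 34.7 through 49.0 to 72.3 CPM in secretome-treated muscle. Of 10 secretome-treated muscles 9 exceeded the median control level, while control 1 and control 8 were as high as most of them. The means were 41.3 ± 15.7 and 51.6 ± 13.2 CPM (SD, n = 10 each), a log2 fold change of 0.32 (SE 0.20, 95% confidence interval -0.09 to 0.73, edgeR adjusted p = 0.435). Within libraries 6 to 15 the control levels were 36.2, 39.4, 58.8, 28.9 and 42.7 CPM and the secretome levels 51.2, 72.3, 46.9, 61.4 and 43.1 CPM. Every secretome-treated muscle of that range was above 4 of the 5 controls, and control 8 lay among them. The log2 fold change there was 0.43 (SE 0.18, edgeR adjusted p = 0.483). Over 20 libraries the value was 0.22 without control 2 and 0.43 without control 1 (edgeR p = 0.033, adjusted p = 0.262). Over all 20 libraries the difference in Mstn was within the spread between mice by this test.

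Tgfb1, which encodes the TGF-beta1 ligand, ranged from 4.81 through 7.61 to 19.2 CPM in control muscle and from 3.91 through 5.24 to 8.97 CPM in secretome-treated muscle. The highest level was in control 3, and 8 of 10 secretome-treated muscles were below the control median. The means were 9.07 ± 4.07 and 6.02 ± 1.75 CPM (SD, n = 10 each). The log2 fold change was -0.59 (SE 0.21, 95% confidence interval -1.02 to -0.16), with an unadjusted p of 0.00953 and an adjusted p of 0.203 in edgeR's test. Within libraries 6 to 15 the control levels were 6.91, 7.38, 6.01, 10.2 and 7.42 CPM and the secretome levels 4.73, 6.60, 3.91, 4.42 and 7.58 CPM. In that range, 3 of 5 secretome-treated muscles lay below every control, and the log2 fold change was -0.46 (SE 0.20, edgeR adjusted p = 0.489). Without control 3 the value over 20 libraries was -0.40. The unadjusted p over 20 libraries stayed under 0.05 in 20 of 20 fits with a library left out, but not with a term for the library range (p = 0.111) or with voom (-0.35, p = 0.0674), and within libraries 6 to 15 it stayed under 0.05 in 4 of 10 fits with a library left out.

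Macrophages and neutrophils, which also make TGF-beta1, were followed by their markers beside Tgfb1. Of 6 macrophage markers 6 had a log2 fold change below 0 after secretome treatment, with a median log2 fold change of -0.57, 3 at an unadjusted p under 0.05 and 0 past the false discovery rate. Among all genes tested 9.21% were lower at that unadjusted level. The summed level of the macrophage markers was 38.4 to 129 CPM (median 68.6) in control and 31.4 to 97.6 CPM (median 40.0) in secretome-treated muscle. In libraries 6 to 15 the median log2 fold change of the list was -0.86. Across the 20 muscles, after the mean of each set of 5 libraries was taken away, Tgfb1 had r = 0.367 with the summed macrophage markers and r = 0.799 with the summed neutrophil markers (0.725 without control 3). Its r was 0.558 with the summed red blood cell markers. Of 4 neutrophil markers tested 3 had a log2 fold change above 0, with a median of 1.12. Within libraries 6 to 15 their median was 0.06, with 2 above and 2 below 0. The neutrophil sum, of 5 markers, ranged from 1.36 to 95.9 CPM (median 9.6) in control and from 1.46 to 106 CPM (median 8.9) in secretome-treated muscle. The treatments thus overlapped over almost the whole range. The part of these cells in the Tgfb1 difference was not tested. In bulk muscle, fewer cells of a type and less RNA per cell cannot be told apart.

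Acvr2a encodes the type II receptor ActRIIA, which binds activins and myostatin. It ranged from 27.9 (control 2) through 62.5 to 87.6 CPM in control muscle and from 48.0 through 71.8 to 104 CPM in secretome-treated muscle. Again 9 of 10 secretome-treated muscles were above the control median, and the exception was secretome 9. The means were 61.1 ± 16.8 and 73.0 ± 14.5 CPM, a log2 fold change of 0.26 (SE 0.15, 95% confidence interval -0.06 to 0.57, edgeR adjusted p = 0.415). In libraries 6 to 15 the controls were at 63.4, 61.6, 77.2, 67.5 and 53.3 CPM and the secretome-treated muscles at 78.0, 104, 79.1, 79.8 and 66.2 CPM. There 4 of 5 secretome-treated muscles lay above all 5 controls, and the log2 fold change was 0.34 (SE 0.13, edgeR adjusted p = 0.452). Exons of Acvr2a overlap 446 bases of Orc4 on the opposite strand. The libraries keep strand, but whether the counting used it is not given in the sources used here.

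Acvr2b encodes ActRIIB, the type II receptor for which myostatin has the higher affinity. Its level was 12.8 to 42.9 CPM (median 20.2) in control muscle and 13.5 to 26.4 CPM (median 19.8) in secretome-treated muscle. The highest level was in control 2, the library in which Mstn, Acvr2a, Tgfbr1, Smad2 and Smad3 had their lowest. The means were 22.96 ± 8.35 and 19.2 ± 4.58 CPM, a log2 fold change of -0.26 (SE 0.17, 95% confidence interval -0.62 to 0.10, edgeR adjusted p = 0.470). Within libraries 6 to 15 it was 0.04 (SE 0.13), and between secretome libraries 16 to 20 and control libraries 1 to 5 it was -0.59 (SE 0.23, edgeR adjusted p = 0.141). Without control 2 these values became -0.11 over 20 libraries and -0.27 between the outer libraries, and without control 1 the latter was -0.75 (edgeR adjusted p = 0.0429). The ratio of Acvr2a to Acvr2b per exon length (TPM) ranged from 0.449 in control 2 to 4.73 in control muscle, with a median of 2.12, and from 1.66 to 3.54 in secretome-treated muscle, with a median of 2.73. In 1 of 20 muscles, control 2, Acvr2b was thus the more abundant of the receptor pair.

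The type I receptor genes differed by less than the spread between mice. Acvr1b, which encodes ALK4, the type I receptor of the activin and myostatin branch, was at 40.4 to 74.5 CPM (median 54.5) in control muscle and 41.8 to 71.8 CPM (median 56.4) in secretome-treated muscle. The 2 ranges were nearly the same, and the log2 fold change was 0.05 (SE 0.11, 95% confidence interval -0.18 to 0.28, edgeR adjusted p = 0.847). The sign turned within libraries 6 to 15, where the value was -0.10 (SE 0.11). Acvr1b had the smallest spread of the 10 genes, with a coefficient of variation of 17% over the 20 muscles. Tgfbr1, which encodes ALK5, the type I receptor of TGF-beta, was at 23.4 to 85.9 CPM (median 48.4) in control and 46.8 to 77.4 CPM (median 64.2) in secretome-treated muscle. Its 10 secretome levels lay within the control range, 9 of them above the control median, and the log2 fold change was 0.24 (SE 0.16, 95% confidence interval -0.09 to 0.58, edgeR adjusted p = 0.460). It was 0.19 (SE 0.16) within libraries 6 to 15, and over 20 libraries 0.16 without control 2 and 0.35 without control 9 (edgeR adjusted p = 0.305).

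**Figure D2:**
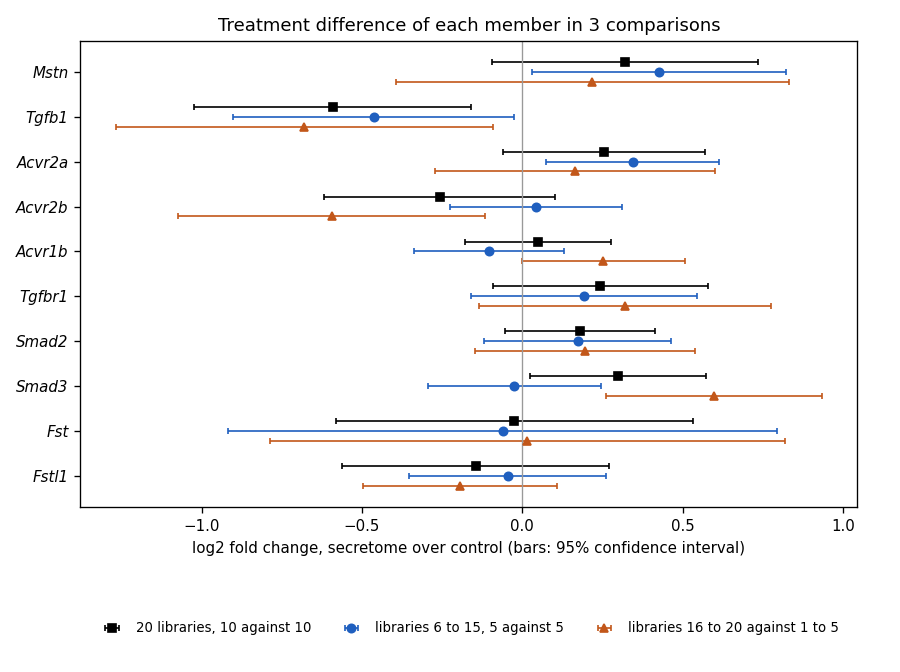
Log2 fold change of each member, secretome over control, with its 95% confidence interval, over 20 libraries (black squares), within libraries 6 to 15 (blue circles) and between libraries 16 to 20 and 1 to 5 (orange triangles). Tgfb1 lies left of 0 in all 3 comparisons, and Smad3 lies right of 0 over 20 libraries (0.30) and at -0.02 within libraries 6 to 15.

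Smad3, a receptor-regulated SMAD that enters the nucleus with SMAD4, had the highest mean of the members per exon length (93.4 TPM). It ranged from 83.4 through 113 to 157 CPM in control muscle and from 111 through 141 to 234 CPM in secretome-treated muscle. The highest level was in secretome 9, and 9 of 10 secretome-treated muscles exceeded the control median. The means were 120 ± 25.1 and 148 ± 35.4 CPM (SD, n = 10 each), a log2 fold change of 0.30 (SE 0.13, 95% confidence interval 0.02 to 0.57, edgeR p = 0.0341, adjusted p = 0.281). Within libraries 6 to 15 the fold change was -0.02 (SE 0.13), and there the controls at 109, 157, 150, 111 and 106 CPM enclosed the secretome-treated muscles at 111, 135, 127, 129 and 116 CPM. In libraries 16 to 20 the levels were 157, 151, 147, 234 and 171 CPM, all above the 83.4 to 142 CPM of control libraries 1 to 5. Between those sets the log2 difference was 0.60 (SE 0.16, edgeR adjusted p = 0.0418), where 3.68% of genes passed the false discovery rate and 4.86% did not overlap. With a library left out it ran from 0.46 (without secretome 9, edgeR adjusted p = 0.124) to 0.69 (without control 1), and it no longer passed the false discovery rate in 12 of 20 such fits. The difference between the 2 treatment effects, within libraries 6 to 15 and between the outer libraries, was -0.63 (SE 0.23, edgeR p = 0.0112, adjusted p = 0.281), where 11.1% of genes reached an unadjusted p under 0.05 and 0.0553% the false discovery rate. Smad2, the other receptor-regulated SMAD of this branch, was at 11.3 to 21.6 CPM (median 18.6) in control and 13.96 to 23.8 CPM (median 20.7) in secretome-treated muscle. These ranges overlapped over most of their width, and the log2 fold change was 0.18 (SE 0.11, 95% confidence interval -0.06 to 0.41, edgeR adjusted p = 0.441), and 0.17 (SE 0.14) within libraries 6 to 15.

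Fst, the gene of follistatin, had the lowest mean per exon length of the members (4.88 TPM) and the largest dispersion. It was at 3.10 to 11.6 CPM (median 5.03) in control and 2.31 to 9.91 CPM (median 5.03) in secretome-treated muscle, on 45 to 210 counts per library. The medians were equal to 3 digits, and 5 secretome-treated muscles were above and 5 below the control median. The log2 fold change was -0.02 (SE 0.27, 95% confidence interval -0.58 to 0.53, edgeR adjusted p = 0.973), so changes inside that interval are not excluded. The value was -0.06 (SE 0.39) within libraries 6 to 15. Its dispersion was above that of 88.3% of genes tested, and across the muscles Fst had r = 0.677 with the summed macrophage markers within sets of 5 libraries, whose part was not tested. Exons of Fst overlap 115 bases of the antisense gene Gm47040, which had at most 7 counts in a library. Fstl1, the follistatin-like glycoprotein made by stromal and other cells, was at 19.8 to 56.8 CPM (median 32.7) in control and 18.9 to 44.0 CPM (median 32.6) in secretome-treated muscle. Its treatment ranges overlapped over most of their width, and the log2 fold change was -0.14 (SE 0.20, 95% confidence interval -0.56 to 0.27, edgeR adjusted p = 0.750), which became -0.042 without control 5 and was -0.05 (SE 0.14) within libraries 6 to 15.

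Fstl1 instead followed the library number. In control libraries 1 to 5 it was at 41.0, 35.6, 41.7, 53.6 and 56.8 CPM, and in control libraries 6 to 10 at 22.6, 25.1, 19.8, 29.9 and 25.7 CPM. In secretome-treated libraries 11 to 15 it was at 20.1, 18.9, 23.7, 30.9 and 24.7 CPM, and in libraries 16 to 20 at 40.5, 34.3, 42.1, 39.1 and 44.0 CPM. The 10 libraries numbered 6 to 15 were all below the other 10, a separation shared by 24 of 14471 genes (0.166%). Control libraries 6 to 10 were lower than 1 to 5 by a log2 difference of -0.89 (SE 0.15, edgeR adjusted p = 0.00115), where 5.55% of genes passed the false discovery rate and 4.73% did not overlap. Secretome-treated libraries 16 to 20 were higher than 11 to 15 by 0.76 (SE 0.15, edgeR adjusted p = 0.0496), where 0.221% of genes passed and 2.74% did not overlap. Only 12 genes (0.0829%) passed both contrasts with opposite signs, and besides Fstl1 they were, named here after their values were seen, Anxa2, Col6a1, Col6a2, Fbn1, Gm15833, Pcsk6, Pf4, Rbfox2, S100a10, Serpinh1 and Vim. The call between secretome-treated ranges is close to its threshold. It was lost, with edgeR adjusted p from 0.0517 to 0.165, without control 4, 6, 7 or 10 or without secretome 1, 2, 3, 5, 6, 7, 8 or 10.

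**Figure D3:**
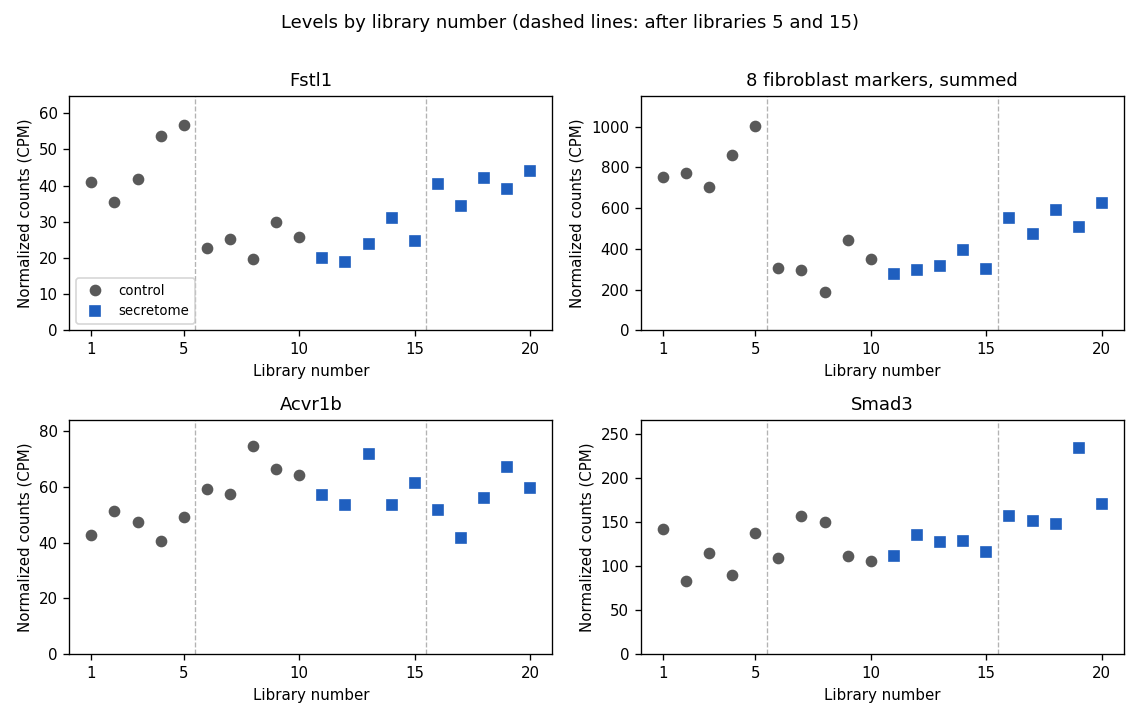
Normalized counts (CPM, linear axes from 0) by library number for Fstl1, the sum of 8 fibroblast markers, Acvr1b and Smad3, with controls as grey circles, secretome-treated muscles as blue squares and dashed lines after libraries 5 and 15. Fstl1 and the fibroblast sum are both lowest in libraries 6 to 15, and Smad3 is highest in library 19 (234 CPM).

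Of the marker lists, that of fibroblasts had the highest r with Fstl1. The sum of 8 such markers, which include the receptor gene Pdgfra and the collagen gene Col3a1, was 702 to 1004 CPM in control libraries 1 to 5 and 187 to 442 CPM in control libraries 6 to 10. In secretome-treated libraries it was 277 to 396 CPM in numbers 11 to 15 and 471 to 626 CPM in numbers 16 to 20. Of the 8 markers, 8 were lower in control libraries 6 to 10 than 1 to 5, 6 past the false discovery rate, and 8 were higher in secretome-treated libraries 16 to 20 than 11 to 15, 0 past it. Other lists had the same pair of directions, with 0 markers past the false discovery rate in either contrast. Of 6 macrophage markers 6 were lower and then 6 higher (medians -0.63 and 0.86), of 4 adipocyte markers 4 and 4 (-0.82 and 0.66), of 4 neutrophil markers 4 and 4 (-0.97 and 2.07), and of 5 red blood cell markers 4 and 5 (-1.09 and 0.58). Within sets of 5 libraries, Fstl1 had r = 0.795 with the fibroblast sum over the 20 muscles, 0.488 with the tendon, 0.465 with the adipocyte and 0.360 with the macrophage sum. The part of these cells in the Fstl1 pattern was not tested. Acvr1b also differed between the control ranges, at 40.4 to 51.5 CPM in libraries 1 to 5 and 57.5 to 74.5 CPM in libraries 6 to 10. Those ranges did not overlap, and the log2 difference was 0.47 (SE 0.12, edgeR adjusted p = 0.0248). It no longer passed without control 4 (0.43, adjusted p = 0.0702) or control 8 (0.42, adjusted p = 0.0762). In secretome-treated muscle, libraries 16 to 20 over 11 to 15 gave -0.11 for Acvr1b (SE 0.12, edgeR adjusted p = 0.892), so that its mean was the higher in libraries 6 to 15 in each treatment, and 0.48 for Smad3 (SE 0.16, edgeR adjusted p = 0.293), whose 2 ranges did not overlap.

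Levels were compared between genes per exon length, as TPM (counts over exon length, scaled to a fixed sum per library) from the counts and the GENCODE M21 exon lengths. Smad3 had the highest mean at 93.4 ± 21.6 TPM, above 92.7% of genes tested, followed by Mstn at 66.4 ± 20.5, Acvr1b at 49.7 ± 10.4, Acvr2a at 46.0 ± 12.3 and Tgfbr1 at 34.8 ± 10.5 TPM (SD over 20 muscles). Fstl1 followed at 26.2 ± 8.11, Acvr2b at 20.8 ± 6.62, Smad2 at 8.32 ± 1.56, Tgfb1 at 5.76 ± 2.38 and Fst at 4.88 ± 2.36 TPM. The ranges of neighbours in this order overlapped over the 20 muscles, except that Acvr2b was above Smad2 with no overlap and in 20 of 20 muscles. Smad3 was above Mstn in 18 of 20 muscles, whereas Acvr1b and Acvr2a, at nearly equal means, kept that order in 12 of 20. The ligand of muscle fibres, Mstn, was thus among the more abundant members per length, and the ligand Tgfb1 and the antagonist Fst were the lowest.

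Correlations between members were taken over the 20 muscles on log2 CPM after the mean of each set of 5 libraries of 1 treatment and range was removed, and they are descriptions over libraries that also share depth and composition. Mstn and Acvr2a had the highest, r = 0.825 (0.708 without control 2). Mstn had r = 0.745 with Smad2 (0.630 without control 2), and Acvr2a had r = 0.686 with Tgfbr1 (0.491 without control 2). Muscles with more Mstn thus tended to have more of the receptor Acvr2a and of Smad2. Acvr2b went the other way, with r = -0.817 with Tgfbr1 (-0.704 without control 2), -0.720 with Acvr2a (-0.516) and -0.600 with Mstn (-0.325). Pooled over all sets, the type II receptor genes therefore varied in opposite directions, and these r values shrank without control 2. In the outer libraries, control 2 and secretome 9 had the lowest Acvr2a and the highest Acvr2b of their sets. Within libraries 6 to 15 this opposition was not seen. There secretome 2 had the highest level of both genes (104 CPM for Acvr2a and 26.4 CPM for Acvr2b). Control 8 had the highest Acvr2a of its set (77.2 CPM), with Acvr2b at 25.4 CPM in a range of 18.8 to 26.1 CPM.

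**Figure D4:**
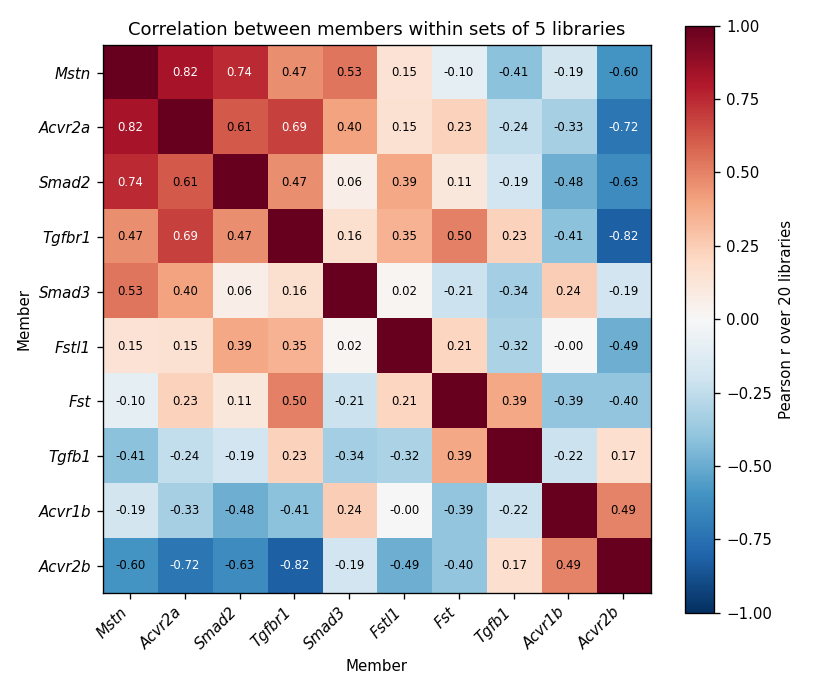
Pearson r between the 10 members over 20 libraries, on log2 CPM minus the mean of each set of 5 libraries, with red for positive and blue for negative values. Mstn, Acvr2a, Smad2 and Tgfbr1 have positive values with each other (0.47 to 0.82), of which Mstn with Tgfbr1 is 0.149 and Tgfbr1 with Smad2 0.23 without control 2, and Acvr2b is negative against each of them.

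The 2 genes most like each member by the same measure were sought among 13168 genes that had a symbol and averaged 1 CPM or more. For Mstn they were Gyg, the glycogenin that primes glycogen synthesis (r = 0.936), and the nuclear receptor gene Rora (r = 0.922). For Tgfb1 the most alike was Xaf1 (r = 0.918). For Acvr2a they were Samd8 (0.929) and Mga (0.927), for Acvr2b Krba1 (0.937) and Ap5s1 (0.922), and for Tgfbr1 Ubxn4 (0.934) and Canx (0.925). Acvr1b was most like Myl6b, a myosin light chain gene (0.856), and the autophagy kinase gene Ulk1 (0.774). Smad2 was most like Shoc2 (0.941) and the endosome gene Eea1 (0.940), and Smad3 was most like the kinase gene Jak1 (0.853) and Gpr146 (0.818). Fst was most like Ncbp1 (0.824) and Atp1b3 (0.799), and Fstl1 was most like the metalloproteinase inhibitor gene Timp2 (0.856) and Clec3b (0.855). Without control 2 these r ran from 0.762 (Acvr1b with Ulk1) to 0.93 (Smad2 with Eea1). Each is 1 of the 2 highest of 13168 correlations over 20 libraries, so a high value alone does not set a pair apart.

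Around the 10 members, 82 other genes of the pathway were listed by role, and 67 of them were tested. Of the 67, 23 had a log2 fold change above 0 and 44 below, with a median of -0.10 against -0.03 over all genes tested. The share of all genes tested that lay below 0 was not determined. An unadjusted p under 0.05 was reached by 9 higher and 7 lower genes, and 0 passed the false discovery rate. These 16 genes among 67 stand against the 15.7% of all genes at that level, and within libraries 6 to 15 there were 11 among 67 where 9.95% of genes reached it.

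The 6 other ligands tested were 3 above and 3 below 0, with a median of 0.01. The inhibin alpha gene Inha had a log2 fold change of -0.44 (edgeR adjusted p = 0.261), Inhbb, which encodes an activin subunit, -0.40, and the ligand Tgfb3 0.17, and within libraries 6 to 15 they were at -0.12, -0.31 and 0.11. Of 6 receptors and co-receptors 5 were below 0, among them the endothelial type I receptor Acvrl1 at -0.24 and the co-receptor betaglycan, Tgfbr3, at -0.20, while the type I receptor Acvr1 was at 0.17. In libraries 6 to 15 alone Acvrl1 was at -0.14, Tgfbr3 at -0.0060 and Acvr1 at 0.20. Of 8 extracellular binding proteins tested 8 were below 0, from -0.71 to -0.011 with a median of -0.32. An unadjusted p under 0.05 was found for the latent TGF-beta binding proteins Ltbp1 (-0.26) and Ltbp2 (-0.71, on a mean of 0.775 CPM in control muscle). The follistatin relative Fstl3 was at -0.43 on a mean of 0.869 CPM in control muscle, and other genes of the list were also under 1 CPM there. The list had a median of -0.23 within libraries 6 to 15, with Ltbp1 at -0.17, Ltbp2 at -0.93 and Fstl3 at -0.72. Of these 8 genes, 0 passed the false discovery rate (smallest edgeR adjusted p = 0.287).

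The 10 activators of latent ligands tested had a median of -0.17, with the integrin Itgav at 0.25, the procollagen and myostatin-releasing proteinase Bmp1 at -0.43 and Lrrc32, which holds latent TGF-beta on the cell surface, at -0.41. Within libraries 6 to 15 Itgav was at 0.16, Lrrc32 at -0.43 and Bmp1 at -0.072, while Bmp1 differed between control libraries 6 to 10 and 1 to 5 by -0.91 (edgeR adjusted p = 0.00267). The 11 SMAD partners and regulators had a median of 0.16, with 4 higher and 0 lower at an unadjusted p under 0.05. Of all genes tested, 6.52% were higher and 9.21% lower at that level. Within libraries 6 to 15, however, the median of the list was -0.03, with 5 genes above and 6 below 0. Zfyve9, which encodes the SMAD anchor SARA, was at 112 ± 25.1 CPM in control and 142 ± 16.7 CPM in secretome-treated muscle (SD, n = 10 each). Each of the 10 secretome-treated muscles was above the control median, and the log2 fold change was 0.34 (SE 0.12, edgeR adjusted p = 0.195), and 0.33 (edgeR adjusted p = 0.452) in libraries 6 to 15. The SMAD phosphatase Ppm1a (0.18) and the ubiquitin ligase Smurf2 (0.20) were likewise above the control median in 10 of 10 muscles, and were at 0.09 and 0.20 within libraries 6 to 15. The share of all genes tested with such a count was not determined.

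Of 12 genes that respond to TGF-beta, 4 were above and 8 below 0, with a median of -0.24 over 20 libraries and -0.30 within libraries 6 to 15. Ccn2, which encodes connective tissue growth factor, had the smallest p, at 0.47 over 20 libraries (edgeR adjusted p = 0.251), but was at -0.05 within libraries 6 to 15. Skil, the SMAD corepressor SnoN, was at 0.25 and 0.09, and Ltbp2, listed here too, at -0.71 and -0.93. The mean of Ltbp2 was 0.775 CPM in control and 0.468 CPM in secretome-treated muscle. In the BMP arm, 7 of 17 genes were above 0, among them the type II receptor Bmpr2 (0.27) and Smad5 (0.20), while the extracellular BMP modulator Bmper was at -0.49 (edgeR adjusted p = 0.213). These were at 0.21 (Bmpr2), -0.0056 (Smad5) and -0.51 (Bmper) within libraries 6 to 15.

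**Figure D5:**
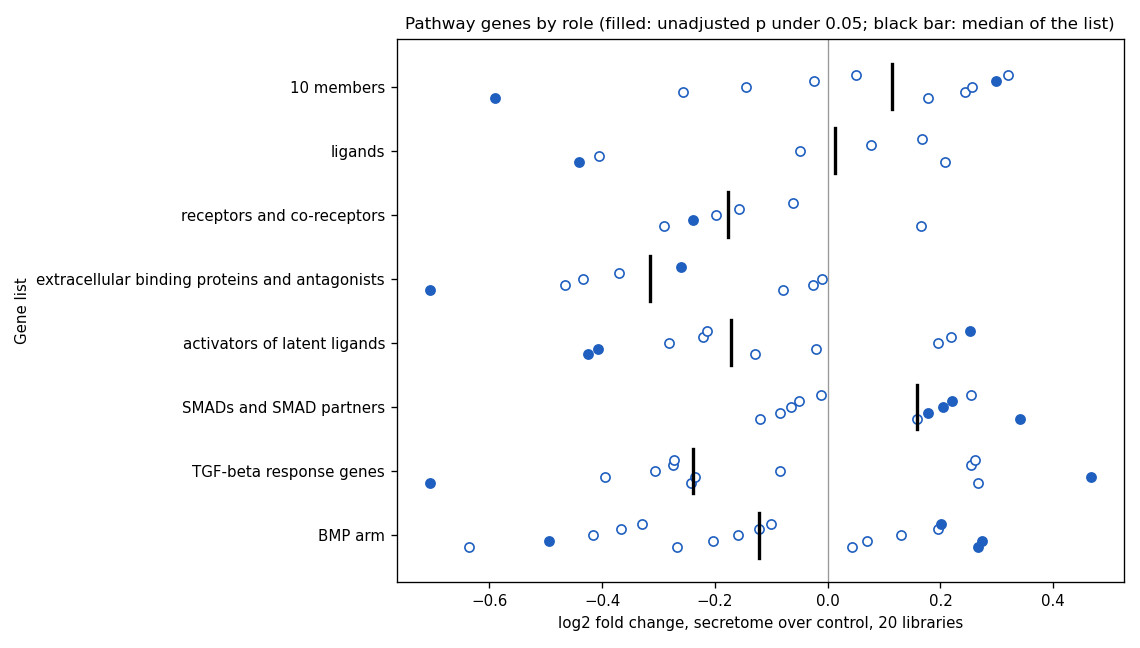
Log2 fold change, secretome over control over 20 libraries, of the 10 members and of the other pathway genes by role, with filled points at an unadjusted p under 0.05 and a black bar at the median of each list. The 8 extracellular binding proteins all lie below 0 (-0.71 to -0.011), and the SMADs and partners have a median of 0.16 (-0.03 within libraries 6 to 15). Of these genes, 0 passed the 5% false discovery rate.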

How the data were processed

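RNA of 20 quadriceps muscles, 10 per treatment, was read as stranded, ribosomal RNA-depleted libraries in pairs. The authors deposited raw read counts per gene, without normalization, in 1 column per mouse. The submitters' processing notes name cutadapt 1.16, STAR 2.7.9a, featureCounts 1.6.3, DESeq2 1.34.0 and the build GRCm39, and the annotation and the strand setting are not given in the sources used here. Groups came from the sample labels, which give the tissue as quadriceps in every sample while their extraction text speaks of myotubes, and the strain as C57BL/6J where the paper writes C57BL/6.

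From the counts, filterByExpr of edgeR 4.0.16 (R 4.3.3) kept 14471 of 55416 genes, TMM scaled the libraries, and the robust quasi-likelihood F-test with Benjamini-Hochberg adjustment over all genes tested compared the treatments. Libraries 6 to 15 were fitted alone with the same settings. The contrasts between library ranges, the treatment difference of the outer libraries and the interaction came from 1 fit with 4 sets of 5 libraries. Standard errors were the size of the log2 fold change divided by the square root of F. CPM are TMM scaled, and correlations used log2 CPM with a prior count of 2. TPM used union exon lengths of GENCODE M21, which matched 52135 identifiers holding 99.45% of counts. Symbols were matched for 52083 identifiers. The p-values set each difference against the spread between libraries, each of which is 1 muscle of 1 mouse. In the fit of the treatments over 20 libraries that spread also holds shifts between library ranges.

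The members, gene lists and tests were chosen with earlier results of these data known, and no set test was run. Named genes were the 10 members, the 3 genes with the smallest p in each pathway list, any list gene past the false discovery rate, and the 2 genes most like each member, of which 1 is not reported here. Genes called in both range contrasts were named after their values were seen. Alternatives were DESeq2 1.42.0, RLE scaling, no filter on low counts, voom with quality weights (limma 3.58.1), a replicate block, a term for the library range and each library left out. RLE scaling, DESeq2 and left-out libraries for the range contrasts were added after seeing the data. The procedure was tested on simulated data. The marker lists cover myofibres, myosin heavy chains, satellite cells, fibroblasts, endothelial cells, smooth muscle cells, macrophages, neutrophils, adipocytes, tendon cells, Schwann cells and red blood cells.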

Additional observations from a re-analysis of the deposited data

Results flagged for a closer look

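In 3 of the 20 groups formed by the 10 members and 2 treatments, 1 muscle stood far from the others in CPM, with a gap to the nearest muscle, relative to the whole range, past Dixon's 95% limit for 10 values, where chance gives about 1. Tgfb1 was at 19.2 CPM in control 3, against 11.4 CPM in the next control, a gap of 0.541 of the range. Acvr2b was at 42.9 CPM in control 2, against 27.5 CPM in the next control, a gap of 0.513 of the range. Smad3 was at 234 CPM in secretome 9, against 171 CPM in the next secretome-treated muscle, a gap of 0.513 of the range. On log2 CPM the same comparison found 0 such muscles. The difference between treatments over 20 libraries was -0.40 for Tgfb1 without control 3, -0.11 for Acvr2b without control 2 and 0.20 for Smad3 without secretome 9.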

How the results depend on the processing

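Across DESeq2, RLE scaling, no filter on low counts, voom, the replicate block, the library range term and each of 20 libraries left out, 0 members passed the false discovery rate between treatments. Of 110 values of single members under other settings, not counting fits with a library left out, 105 kept their direction and side of the threshold. With the library range as a term, 3 members changed sign over 20 libraries, Acvr2b to 0.033, Acvr1b to -0.12 and Smad3 to -0.035, and with voom Fst went to 0.21. Members at an unadjusted p under 0.05 over 20 libraries numbered 2, against 0 with the range term, 1 with voom (Tgfbr1, with Smad3 and Tgfb1 lost), and 1 (without control 2, 4, 6, 10 or secretome 10) to 4 (without control 1) with a library left out. In libraries 6 to 15 they numbered 3, and 1 (without control 7 or 10 or secretome 2 or 4) to 3 with a library left out. Genes past the false discovery rate over 20 libraries numbered 1, against 190 with DESeq2, 3 with voom, 0 with the range term, 0 with the replicate block, and 0 (without control 6 or 9 or secretome 1, 4, 5, 6 or 7) to 15 (without control 5) with a library left out. The 16 pathway genes at an unadjusted p under 0.05 became 3 with the range term and 10 with voom. The range term takes the treatment difference from libraries 6 to 15 alone, since the other ranges hold 1 treatment each, so it is no separate check of that range. The cause of the other shifts was not tested.

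With a library left out, Fst ran from -0.15 to 0.15 over 20 libraries and changed sign in 8 of 20 fits. In libraries 6 to 15 Fst ran from -0.31 to 0.43, Acvr2b from -0.012 to 0.11, Smad3 from -0.078 to 0.063 and Fstl1 from -0.16 to 0.032, each with a change of sign. Over 20 libraries Smad3 ran from 0.20 (without secretome 9) to 0.35, and Tgfb1 from -0.67 to -0.40 (without control 3). Between control ranges 2 members passed the false discovery rate, and 1 (without control 4 or 8, when Acvr1b was lost) to 2 with a library left out. Between secretome-treated ranges 1 member passed, Fstl1, and 0 under RLE scaling (adjusted p = 0.0505) and 0 to 1 with a library left out. It was lost without control 4, 6, 7 or 10 or secretome 1, 2, 3, 5, 6, 7, 8 or 10.

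Whether replicate numbers pair the mice could not be settled from the counts. Deviations of same-numbered libraries from their treatment mean had r from -0.24 to 0.221, with 2 of 10 pairs above 0.1. Same-numbered libraries lie in different library ranges, whose shifts were not removed, so these values cannot exclude pairing. Under the replicate block Mstn was at 0.37, Tgfb1 at -0.53 and Smad3 at 0.30, with 0 members past the false discovery rate. No block could be fitted in libraries 6 to 15, where the treatments share no numbers. Between secretome-treated libraries 16 to 20 and control libraries 1 to 5, 1 member passed, Smad3, and 0 (without control 2, 3 or 4 or secretome 1, 2, 3, 4, 5, 6, 7, 9 or 10) to 2 (without control 1) with a library left out. Depth limits Fst and Tgfb1 most, with as few as 45 and 71 counts in a library.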

Other observations

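Markers of cell types that the report does not describe had the following differences between treatments, with 0 genes past the false discovery rate in each list. Over all genes tested the median log2 fold change was -0.03. Of 4 adipocyte markers 4 were lower after secretome treatment, with a median log2 fold change of -0.71, and of 6 endothelial markers 5 were lower, with a median of -0.09. Of 5 smooth muscle and pericyte markers 4 were lower (median -0.24), of 5 tendon markers 4 (median -0.36), of 4 Schwann cell markers 4 (median -0.22) and of 5 red blood cell markers 3 (median -0.20). Satellite cell markers, of which 4 were tested, had a median of -0.01, and the 8 myofibre markers were 4 higher and 4 lower. Of the 8 fibroblast markers 8 were lower over 20 libraries (median -0.34), and within libraries 6 to 15 the list had a median of 0.0047 with 4 higher and 4 lower. Of the 4 neutrophil markers tested 3 were higher (median 1.12, and 0.06 within libraries 6 to 15).

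The 4 myosin heavy chain genes of fibre types had a summed level of 24240 to 58350 CPM in control and 42560 to 64790 CPM in secretome-treated muscle. The sum was 24240 to 39580 CPM in control 1 to 5 and 43090 to 58350 CPM in control 6 to 10. It was 45460 to 57480 CPM in secretome 1 to 5 and 42560 to 64790 CPM in secretome 6 to 10. Secretome 1 to 5 thus lay within the range of control 6 to 10, the controls of the same library range. The low end of the control levels came from control 1 to 5. Within sets of 5 libraries this sum had r = 0.531 with Mstn, 0.632 with Smad3 and -0.600 with Tgfb1 over the 20 muscles, given as a description.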
